A study of Mus musculus with 7 samples.

Results

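The genes described here were 9: the type 2 cytokine genes Il4, Il5 and Il13, the haematopoietic cytokine genes Il3 and Csf2, the lymphocyte cytokine genes Il9 and Il31, the growth factor gene Areg, and Rad50, a DNA repair gene that lies among the cytokine genes. They were chosen by name, and every probe whose accession maps to one of them was used. That gave 10 probes of 39429 on the array, 2 for Rad50 and 1 for each other gene. All 9 genes were among the 25370 tested. The cells were type 2 innate lymphocytes (ILC2s), which lack rearranged antigen receptors, and their RNA was measured on 7 two-colour microarrays: 3 held Gfi1 knockout cells and 4 held wild-type cells.

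The knockout mice carried a GFP cassette on both copies of Gfi1, an allele that ends the gene's function while its promoter still drives GFP, and the study's design text names the mice both Gfi1GFP/GFP and Gfi1-/-. The other group was Gfi1+/+. All mice in both groups received IL-25 daily for 4 days. On day 5, cells that were Lin-, Sca-1+, ICOS+, CD127+ and c-Kit+ were sorted from mesenteric lymph nodes, with 6 mice pooled per knockout sample and 3 per wild-type sample. Both groups were then cultured for 6 days with IL-25 and IL-2 (each at 50 ng/ml) plus IL-7 (10 ng/ml), so the values describe expanded, cytokine-stimulated cells. The ages and sexes of the mice were not used here. Red dye (Cy5) carried the ILC2 RNA, and green dye (Cy3) carried a common mouse reference RNA, on every array.

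IL-4, IL-5 and IL-13 are the effector cytokines of type 2 immunity: IL-5 sustains eosinophils, IL-13 acts on epithelium and smooth muscle, and IL-4 acts on B cells and T cells. In the mouse their genes lie together on chromosome 11 around Rad50, whose introns hold a control region of the cytokine genes, and Il3 and Csf2 lie further along the same chromosome. GATA3 activates these genes in type 2 lymphocytes, NFAT acts on them after stimulation, and Gfi1 is a zinc finger repressor that ILC2s need. Il9 (chromosome 13), Il31 and Areg (both chromosome 5) lie elsewhere.

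Promoter sequences were available for 8 of the 9 genes (RefSeq, GRCm38.p6). The 250 bases upstream of the transcription start are shown for the cytokine genes that were called higher, Il31 (chr5:123482624-123482873, minus strand) and Il3 (chr11:54267280-54267529, minus strand), and for the clustered genes Il4 (chr11:53618666-53618915, minus strand, the outer of 2 starts), Il13 (chr11:53634703-53634952, minus strand) and Il5 (chr11:53720544-53720793, plus strand). Each is written 5′ to 3′ towards the start. Capitals mark matches on either strand to a GATA site (AGATAA or AGATAG or TGATAA or TGATAG) or to AATC, the core of the sequence that Gfi1 binds.
Il31: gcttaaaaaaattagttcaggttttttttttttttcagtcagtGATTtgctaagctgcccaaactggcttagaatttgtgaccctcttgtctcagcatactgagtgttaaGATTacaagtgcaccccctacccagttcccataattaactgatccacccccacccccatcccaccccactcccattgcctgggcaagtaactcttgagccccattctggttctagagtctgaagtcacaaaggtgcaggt
Il3: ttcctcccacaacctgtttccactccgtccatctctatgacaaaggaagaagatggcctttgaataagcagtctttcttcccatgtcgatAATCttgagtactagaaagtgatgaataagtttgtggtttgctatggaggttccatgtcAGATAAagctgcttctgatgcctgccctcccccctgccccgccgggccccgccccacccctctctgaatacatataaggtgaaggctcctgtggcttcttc
Il4: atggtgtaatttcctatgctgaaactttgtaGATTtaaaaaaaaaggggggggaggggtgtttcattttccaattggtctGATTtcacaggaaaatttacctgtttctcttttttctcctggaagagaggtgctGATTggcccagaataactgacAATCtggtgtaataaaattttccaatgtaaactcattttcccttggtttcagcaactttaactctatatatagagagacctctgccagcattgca
Il13: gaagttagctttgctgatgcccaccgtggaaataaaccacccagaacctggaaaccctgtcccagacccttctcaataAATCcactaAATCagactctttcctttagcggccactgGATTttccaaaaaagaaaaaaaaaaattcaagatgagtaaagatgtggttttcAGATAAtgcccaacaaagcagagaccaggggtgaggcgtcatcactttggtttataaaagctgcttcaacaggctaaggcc
Il5: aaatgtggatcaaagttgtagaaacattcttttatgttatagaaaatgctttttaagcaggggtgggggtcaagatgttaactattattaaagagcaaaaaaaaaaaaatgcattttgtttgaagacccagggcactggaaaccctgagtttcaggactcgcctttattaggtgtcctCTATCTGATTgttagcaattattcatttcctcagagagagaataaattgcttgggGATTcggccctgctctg

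The windows of Il3, Il13 and Il5 each held 1 GATA match, beginning 101, 81 and 72 bases before the start, and so did that of Csf2. Those of Il31, Il4, Il9 and Areg held none. Of 32851 promoter windows of this length, 26.5% held such a match. AATC was found 4 times in the Il4 window, 3 times in that of Il13, 2 times each in those of Il5 and Il31 and once in each of the other 4, and 69% of all windows held it. GGAAA, the core of NFAT sites, occurred 5 times in the Il4 window, 4 times in that of Il13 and not in that of Il31, against 55.6% of all windows with a match. None of the GATA matches overlapped an AATC match, and a GGAAA match overlapped 1 marked match in the Il13 window and 1 in that of Csf2. A match is a stretch of letters and was not tested as a binding site.

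Levels are given as the log2 of the ILC2 signal divided by the reference signal, except where a single channel is named. Differences are knockout arrays minus wild-type arrays. Calls are those of limma with a Benjamini-Hochberg adjusted p under 0.05 over all tested genes. The red signal cleared background for 67.4% to 80.9% of the probes on each array. Log ratios correlated at 0.942 or more between any pair of arrays, as a description over genes. The arrays lay on 3 slides: slide 1 held 1 array of each group, slide 2 held 2 knockout arrays and 1 wild-type array, and slide 3 held 2 wild-type arrays. The Gfi1 probe read 4.28 on the knockout arrays and 2.02 on the wild-type arrays on average (difference 2.25, limma adjusted p = 1.63e-05). Where that probe lies relative to the GFP cassette is not known here, so it checks no label. Ratios of different probes are not set against each other, since a ratio also depends on the gene's level in the reference RNA.

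Of the 9 genes, Il31 and Il3 rose in knockout ILC2s, Rad50 and Areg fell, and Il4, Il5, Il13, Csf2 and Il9 were not called. The largest change was the 2.72-fold rise of Il31, and the other called changes were of 1.34-fold to 1.40-fold. Among all tested genes 7.5% were called, 3.27% higher and 4.23% lower. That split, 830 higher and 1074 lower, depended on the scaling. It was 895 and 719 with median centring in place of loess, and 2061 and 393 with no normalization within arrays, where the median of all genes stood at 0.21 against -0.01 here. Under both of these Il31 and Il3 were called higher and Rad50 and Areg were not called, and relative to the median of all genes Rad50 then stood at -0.41 and Areg at -0.39. All 3 knockout arrays lay on one side of all 4 wild-type arrays in 6 of the 9 genes (higher for Il31 and Il3, lower for Il4, Il13, Rad50 and Areg), against 18.2% of all tested genes, 8.07% higher and 10.2% lower. The genes were chosen with earlier results known, so these counts are a description. In RNA from pooled cells, fewer cells that make a transcript and less transcript per cell cannot be told apart.

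**Figure D1:**
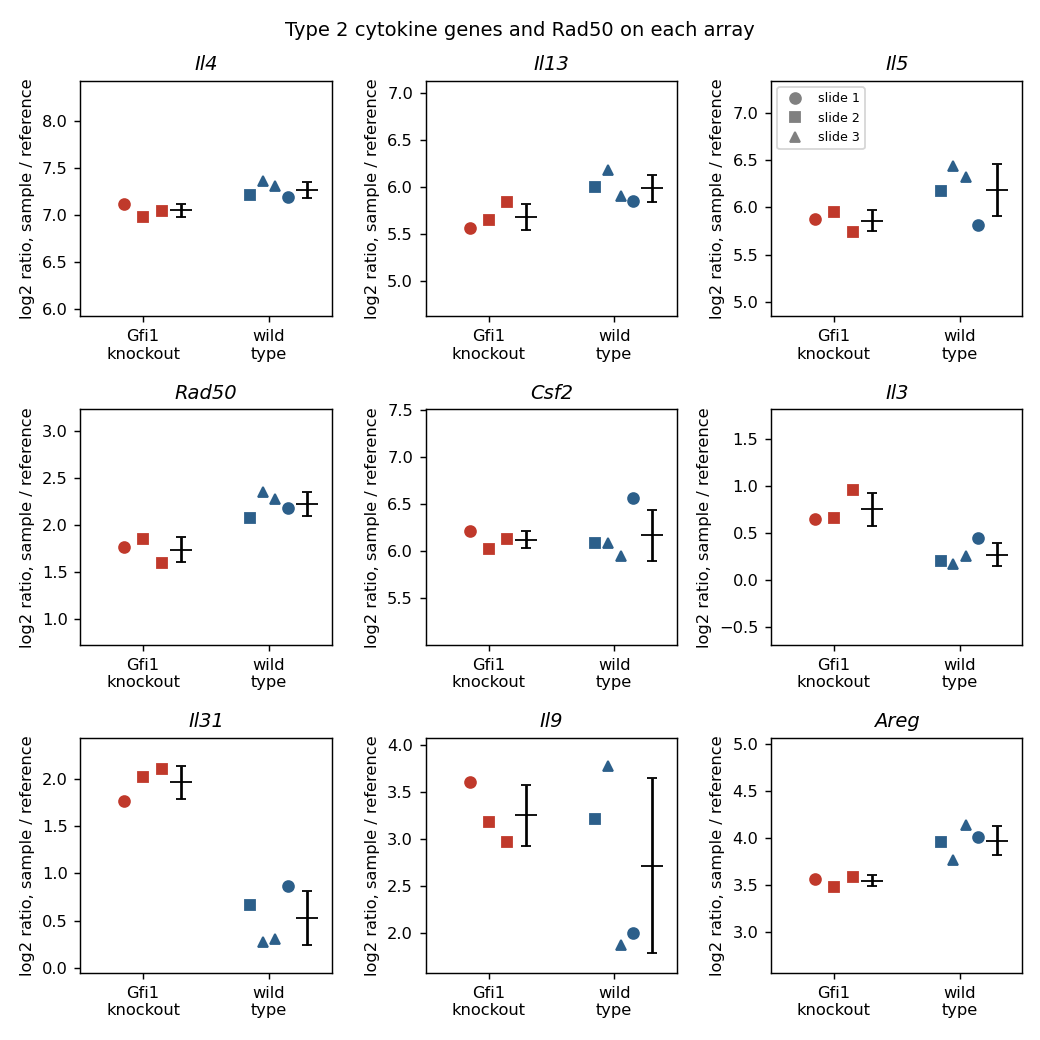
Log2 ratio of sample over reference for each of the 9 genes on the 3 Gfi1 knockout arrays (red, left) and the 4 wild-type arrays (blue, right). Marker shapes give the slide, bars give mean ± SD, and every panel spans the same range of 2.5 log2 units on its vertical axis. Il31, Il3, Il4, Il13, Rad50 and Areg show no overlap between the groups, while the wild-type arrays of Il9 run between 1.88 and 3.77.

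In the loess-normalized ratio, Il4 was close to the same level on all arrays. Its ratio was 7.11, 6.98 and 7.05 in knockout ILC2s, against 7.21, 7.36, 7.30 and 7.19 in wild-type ILC2s. The groups did not overlap, but the distance between the lowest wild-type and the highest knockout array was small. The difference of -0.22 was not called (limma adjusted p = 0.163, unadjusted 95% interval -0.40 to -0.04). Il4 is spotted 10 times on each array, and the SD of the scanner's ratio over those spots was 0.08 to 0.15 within an array. In the sample channel alone the difference was -0.09 (limma adjusted p = 0.61), and there the groups overlapped. The scanner's ratio ran from 8.06 to 8.82 over the arrays, with overlapping groups and a difference of -0.36 (limma adjusted p = 0.281). Plain background subtraction gave -0.55 (limma adjusted p = 0.303).

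Il13, the cytokine of mucus production and airway reactivity, had ratios of 5.57, 5.64 and 5.84 in knockout ILC2s. In wild-type ILC2s it had 6.00, 6.18, 5.90 and 5.85. The groups met without overlap, with knockout array 3 just under wild-type array 4. The difference of -0.30 was not called (limma adjusted p = 0.14, unadjusted 95% interval -0.54 to -0.06), and it was -0.28 within slide 1 and -0.26 within slide 2.

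Il5, the eosinophil growth factor, had ratios of 5.88, 5.96 and 5.74 in knockout ILC2s, against 6.17, 6.44, 6.32 and 5.81 in wild-type ILC2s. Wild-type array 4 lay inside the knockout range, and the other wild-type arrays lay above it. The difference was -0.33 (limma adjusted p = 0.247, unadjusted 95% interval -0.65 to -0.0053). It was 0.07 within slide 1, which holds wild-type array 4, and -0.32 within slide 2.

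The readout decided the Il5 result. In the sample channel alone, Il5 was 16.78, 16.06 and 16.17 in knockout ILC2s, against 17.02, 17.02, 17.29 and 17.12 in wild-type ILC2s. There all knockout arrays lay below all wild-type arrays, as they did for 10.1% of tested genes, with 8.58% the other way. The difference was -0.78, and it was called lower (limma adjusted p = 0.0346). The background of calls in that channel was 6.54% of tested genes (2.91% higher, 3.63% lower). With the scanner's ratio it was 5.23%. Il13 in the sample channel was 17.32, 16.90 and 16.13 in knockout ILC2s and 16.96, 17.06, 17.67 and 17.14 in wild-type ILC2s. Its groups overlapped, with a difference of -0.43 (limma adjusted p = 0.469).

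The reference channel of Il5 and Il13 was not constant, although the same reference RNA was on every array. The raw green signal of the Il5 spot was 1185.5, 557 and 733.5 on knockout arrays, against 1067.5, 713, 1030.5 and 1673 on wild-type arrays. That of Il13 was 2216, 1205.5 and 668 on knockout arrays and 1155, 880.5, 1925 and 1650 on wild-type arrays. For Il13, knockout array 3 was the lowest and wild-type array 3 the highest in both normalized channels, and for Il5, knockout array 2 was the lowest in both. After normalization the SD of the reference channel over the 7 arrays was 0.52 for Il13 and 0.40 for Il5, larger than in 99.6% and 98.9% of tested genes, whose median was 0.0905. Among the 205 tested genes at least as bright in the sample channel as the dimmer of Il5 and Il13, the median SD was 0.27. For Rad50 it was 0.03. The reference channel of Il5 differed by -0.45 between the groups, which was not called (limma adjusted p = 0.824), and 0.0394% of tested genes were called in that channel. What moves the reference signal was not tested, so the log ratio and the sample channel are both given for these genes.

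**Figure D2:**
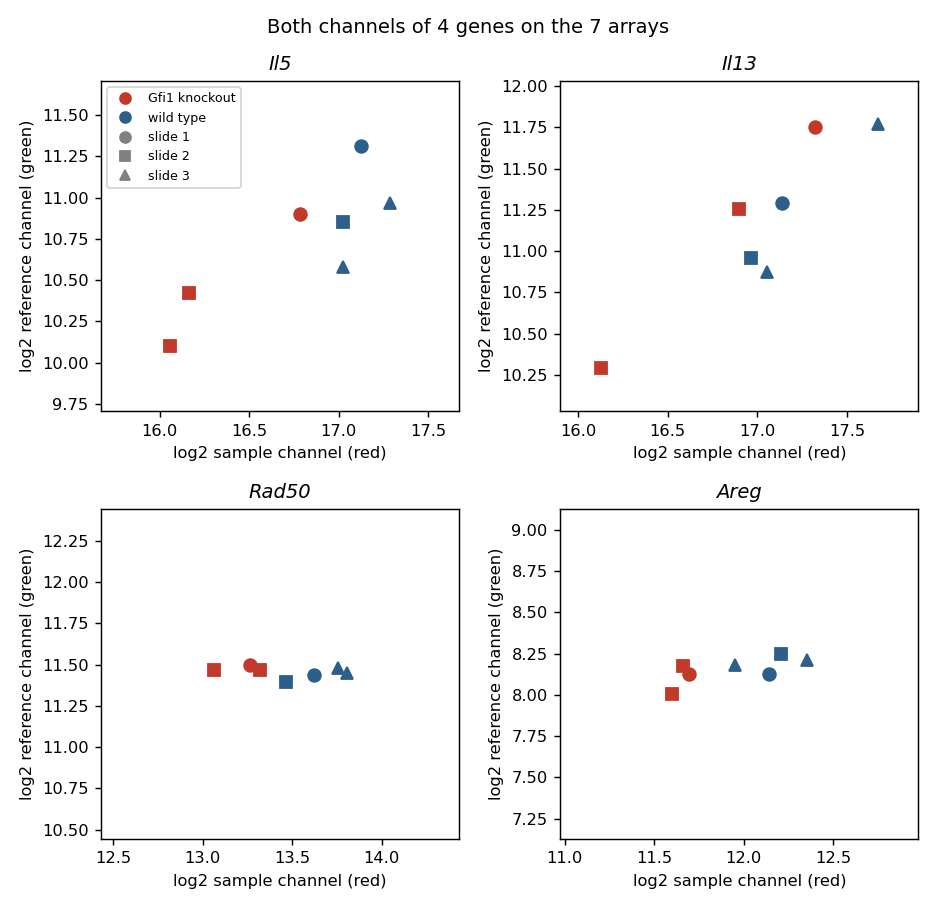
Normalized log2 reference channel (green dye) against log2 sample channel (red dye) for Il5, Il13, Rad50 and Areg, 1 point per array, with 3 Gfi1 knockout arrays in red, 4 wild-type arrays in blue and marker shapes for slides. All panels span 2 log2 units on both axes. The reference signal of Il5 and Il13 moves with the sample signal (SD 0.40 and 0.52 over the arrays), while that of Rad50 and Areg stays within SDs of 0.03 and 0.08.

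Rad50 encodes the coiled-coil ATPase of the MRE11-RAD50-NBN complex, which senses DNA double-strand breaks. Its brighter probe read 1.77, 1.85 and 1.60 in knockout ILC2s, against 2.07, 2.35, 2.28 and 2.18 in wild-type ILC2s. All knockout arrays were below all wild-type arrays. The fall was 1.40-fold (difference -0.48 ± 0.10, SE, limma adjusted p = 0.0173). The second, dimmer probe read 0.68, 0.71 and 0.70 in knockout ILC2s and 0.61, 0.45, 0.38 and 0.80 in wild-type ILC2s. There the groups overlapped and the difference had the opposite sign, 0.13 (limma adjusted p over probes 0.569), so the fall rests on 1 of 2 probes. The call was lost when slide was a block (-0.38, adjusted p = 0.235) and without knockout array 3 (adjusted p = 0.0509). None of the 6 tested partners and effectors of the complex was called by limma, against 7.5% of all tested genes, and 1 had an unadjusted p under 0.05. The 4 with the smallest p were Mdc1 (0.22), Mre11a (-0.33), Rbbp8 (0.18) and Chek2 (0.25).

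Il3, a growth factor of mast cells and basophils, was a dim signal that rose. Its ratio was 0.64, 0.66 and 0.95 in knockout ILC2s, against 0.20, 0.17, 0.26 and 0.44 in wild-type ILC2s. Its raw red signal was 308, 333 and 490 on knockout arrays and 207, 143, 156 and 237 on wild-type arrays, well above background on all 7. The groups did not overlap in the ratio, and knockout array 3 was the highest. The rise was 1.40-fold (difference 0.48 ± 0.11, SE, limma adjusted p = 0.0249), or 1.49-fold in the sample channel. The call was lost when slide was a block (0.43, adjusted p = 0.281), where slide 1 gave 0.20 and slide 2 gave 0.60. It was also lost without knockout array 3 (0.38, adjusted p = 0.0648) and without wild-type array 1, 2 or 3 (adjusted p of at most 0.0728).

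Csf2, which encodes GM-CSF and is the neighbour of Il3, was not called. Its ratio was 6.21, 6.03 and 6.13 in knockout ILC2s, against 6.09, 6.09, 5.95 and 6.56 in wild-type ILC2s. Wild-type array 4 was the highest, and the other 6 arrays lay between 5.95 and 6.21. The difference was -0.05 (limma adjusted p = 0.907), with an unadjusted 95% interval of -0.36 to 0.27. Csf2 is spotted 10 times per array, with an SD of the scanner's ratio over spots of 0.12 to 0.30. In the scanner's ratio wild-type array 2 was the highest (8.05) and wild-type array 4 stood at 7.88. In the sample channel wild-type array 4 was the highest (14.00).

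Il31, a cytokine of itch made by type 2 lymphocytes, showed the largest change of the 9. Its raw red signal was 445, 647 and 730 on knockout arrays, against 162, 63, 70.5 and 122 on wild-type arrays. It was well above background on all 3 knockout arrays but on 2 of the 4 wild-type arrays, 1 and 4. The ratio was 1.76, 2.03 and 2.11 in knockout ILC2s and 0.66, 0.27, 0.31 and 0.87 in wild-type ILC2s. Every knockout array stood above every wild-type array by a wide margin. The rise was 2.72-fold (difference 1.44 ± 0.16, SE, unadjusted 95% interval 1.09 to 1.79, limma adjusted p = 0.00074).

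The size of the Il31 rise depended on the scale, and its reference signal was well above background on no array. The sample channel alone gave 3.44-fold (limma adjusted p = 0.00122) and the scanner's own ratio 7.45-fold (limma adjusted p = 0.0206), and the offset of 50 used here draws dim ratios towards 0. The difference was 0.90 within slide 1, 1.41 within slide 2 and, fitted with a slide term, 1.19 (adjusted p = 0.0102). It was called in all 7 fits made without one array, at 1.36 to 1.55 (adjusted p of at most 0.00562). With plain background subtraction it was not called (1.18, adjusted p = 0.153).

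Il9, a cytokine that acts back on ILC2s and mast cells, was the most variable of the 9. Its ratio was 3.60, 3.18 and 2.96 in knockout ILC2s, against 3.22, 3.77, 1.88 and 2.00 in wild-type ILC2s. Wild-type arrays 3 and 4 were low and arrays 1 and 2 lay among or above the knockout arrays. The wild-type SD of 0.93 was larger than in 99.9% of tested genes, whose median was 0.116. The difference of 0.54 was not called (limma adjusted p = 0.575), and its unadjusted 95% interval, -0.42 to 1.49, covers both directions. It was 1.61 within slide 1 and -0.14 within slide 2, and the reference signal was above background on no array.

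Areg encodes amphiregulin, an EGF receptor ligand with which ILC2s act on tissue repair. Its ratio was 3.57, 3.49 and 3.59 in knockout ILC2s, against 3.96, 3.77, 4.14 and 4.01 in wild-type ILC2s. All knockout arrays lay close together and below all wild-type arrays. The fall was 1.34-fold (difference -0.42 ± 0.10, SE, limma adjusted p = 0.0301), and slides 1 and 2 gave -0.44 and -0.42. The call was lost when slide was a block (adjusted p = 0.242), with the scanner's ratio (-0.47, adjusted p = 0.0715) and without any one array other than wild-type array 2 (adjusted p of at most 0.103). None of 6 other tested EGF family ligands was called by limma, against 7.5% of all tested genes, and 0 had an unadjusted p under 0.05. Those with the smallest p were Hbegf (-0.26), Nrg1 (-0.10), Ereg (-0.12) and Epgn (0.11).

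**Figure D3:**
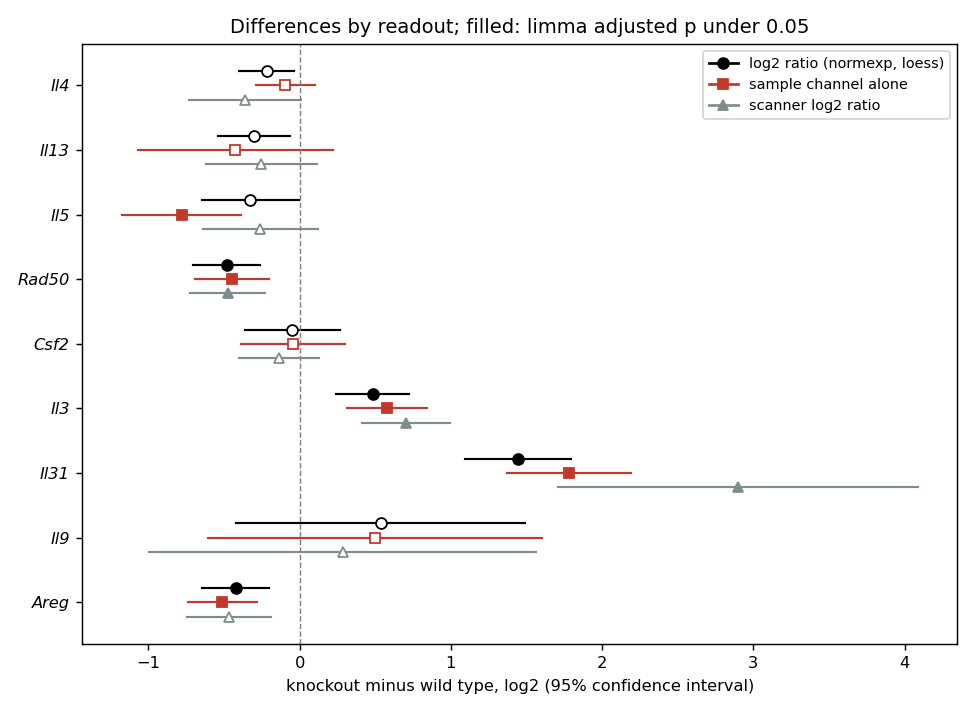
Knockout minus wild-type difference of each gene, with its unadjusted 95% confidence interval, in the loess-normalized log2 ratio (black), the sample channel alone (red) and the scanner's log2 ratio (grey), 3 knockout against 4 wild-type arrays. Filled symbols mark a limma adjusted p under 0.05. Il31 and Il3 are called in all 3 readouts and so is Rad50, while Il5 is called in the sample channel alone.

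The cytokine genes were then set beside their chromosome 11 neighbours. From Hspa4 to Acsl6 the table of RefSeq genes lists 23 protein-coding genes in a row, 6 of them among the 9 described and 17 others. Of 15 tested others, 3 fell and none rose, where 4.23% of all tested genes were called lower and 3.27% higher. The median difference of these others was -0.21, against -0.01 over all tested genes. With the scanner's ratio 2 were called lower and 1 higher: Acsl6, an acyl-CoA synthetase at the end of the row, had 1.07 there (adjusted p = 0.0432), against 0.16 in the loess-normalized ratio (adjusted p = 0.376) and -0.05 in the sample channel. P4ha2, a collagen prolyl hydroxylase next to Csf2, fell 3.17-fold (difference -1.67, limma adjusted p = 0.000159). Aff4, a scaffold of transcription elongation complexes, fell 1.92-fold (adjusted p = 0.00641), a call lost in the sample channel alone (0.0524), and Zcchc10 1.39-fold (adjusted p = 0.0193). The Zcchc10 call was lost without knockout array 2 or wild-type array 1, 3 or 4 (adjusted p of at most 0.0653) with slide as a block (0.164) and with the scanner's ratio (0.0599). Hspa4, a chaperone gene, had -0.48 (adjusted p = 0.0936). The second probe of Septin8 was called lower (-0.49, limma adjusted p over probes 0.0213). Its brighter probe was not (-0.47, adjusted p = 0.146). With averaged probes, or with the dimmest probe of each gene, 4 of the neighbours were called lower.

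**Figure D4:**
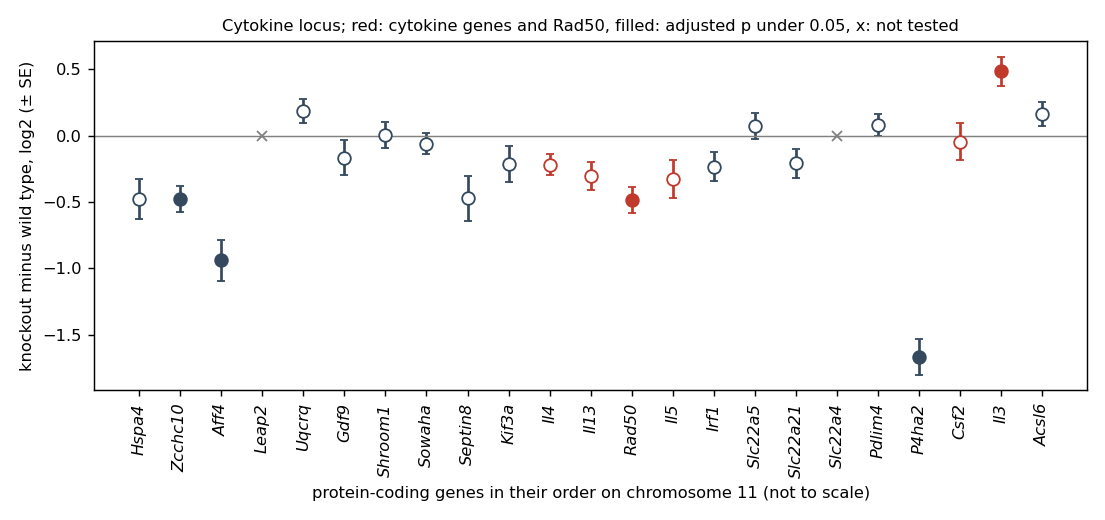
Knockout minus wild-type log2 difference (± SE) of the 23 protein-coding genes from Hspa4 to Acsl6 in their order on mouse chromosome 11, spaced evenly and not to scale. Red symbols are the cytokine genes and Rad50, filled symbols have a limma adjusted p under 0.05, and crosses are genes not tested. From Il4 to Il5 the differences run between -0.22 and -0.48, while Il3 stands at 0.48 and P4ha2 at -1.67. Each gene is shown by its brightest probe, and the dimmer probe of Rad50 stands at 0.13.

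Along this row Il4, Il13, Rad50 and Il5 lay next to one another with differences of -0.22, -0.30, -0.48 and -0.33, and Kif3a and Irf1 on either side had -0.22 and -0.23. Of these 6, Rad50 was the one called, on its brighter probe. The second probes of Rad50, Irf1 and Kif3a stood at 0.13, 0.05 and -0.52, and none of those was called. Il3, Csf2 and P4ha2 at the other end differed by 0.48, -0.05 and -1.67.

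Transcription factors known to act on the type 2 genes changed in both directions. Of 28 tested, 4 rose, with Gfi1 itself among them, and 6 fell, with a median of -0.12. Among all tested genes 3.27% were called higher and 4.23% lower. Gata3 averaged 3.54 in knockout ILC2s and 4.47 in wild-type ILC2s, a 1.90-fold fall (limma adjusted p = 0.0101). Rbpj, the DNA-binding partner of Notch, fell 2.36-fold, with a second probe at -0.98. Bhlhe40 fell 1.86-fold, Fosl2 1.64-fold, Batf 1.39-fold and Runx3 1.32-fold, while second probes of Fosl2 (-0.13) and Runx3 (-0.17) were not called. For Runx1 the second probe was called lower (-0.47, limma adjusted p over probes 0.0377), and its brighter probe was not (-0.34).

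Irf4, which works with BATF, rose 6.43-fold (limma adjusted p = 0.00015). Nfatc2 rose 1.81-fold, although its second probe stood at 0.17 and was not called, and Maf, an activator of Il4, rose 1.61-fold. Gfi1 itself was the other rise, on an allele that ends its function. Where its probe lies relative to the GFP cassette is not known here. With slide as a block Gfi1, Irf4 and Rbpj stayed called. Gata3 did not (-0.85, adjusted p = 0.138), nor did Bhlhe40, Fosl2, Batf, Runx3, Nfatc2 and Maf (adjusted p of 0.0656, 0.0539, 0.1, 0.182, 0.0825 and 0.184). Runx3 was not called with the scanner's ratio (adjusted p = 0.0709), or Maf in the sample channel (adjusted p = 0.0842). Maf was also lost without knockout array 1 or 3 or wild-type array 1 (adjusted p of at most 0.0627), and Runx3 without knockout array 1 or wild-type array 2 or 3 (at most 0.0517).

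Of the receptors and kinases that read these cytokines, 1 was called, where 7.5% of all tested genes were called. Of 17 tested, Jak2, the kinase of the IL-3, IL-5 and GM-CSF receptors, fell 1.51-fold (limma adjusted p = 0.0394) and none rose. That call was lost in the sample channel (adjusted p = 0.0766), with the scanner's ratio (0.0589), when slide was a block (0.25), without knockout array 2 or 3, or without wild-type array 1, 3 or 4 (adjusted p of at most 0.106). The next smallest p values belonged to Il9r (-0.39, adjusted p = 0.0623), Csf2rb2 (-0.79, adjusted p = 0.0735, with a second probe at 0.09) and Il3ra (-0.28, adjusted p = 0.162). In the sample channel Csf2rb2 was the one called (-0.87, adjusted p = 0.0349). The brightest probe of a gene was used, and dimmer probes differed for Egfr, the receptor of amphiregulin. Its brightest probe stood at -0.03, while its other probes were called lower at -0.40 and -0.57 (limma adjusted p over probes 0.0257 and 0.00298). The dimmer probe of Jak3, the kinase of the common gamma chain, was called lower too (-0.43, adjusted p over probes 0.047), and its brighter probe was not (-0.34).

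Other secreted products of ILC2s changed in both directions. Of 19 tested, 4 rose and 6 fell, where 3.27% of all tested genes were called higher and 4.23% lower. Il6 fell 8.09-fold, Arg1 4.33-fold, the growth factors Vegfa 3.13-fold and Bmp7 2.54-fold, Calca 1.60-fold and Lif 1.41-fold. Tnf rose 3.83-fold, Il10 3.41-fold, Tnfsf11 2.29-fold and Cxcl2 1.43-fold (limma adjusted p = 0.00475, 0.00456, 0.0113 and 0.0122). The reference channel of Arg1 and Calca differed, by -0.95 and -1.19 (limma adjusted p = 0.0394 and 0.0153). Both were called there, unlike Il5. Their differences in the sample channel were -3.07 and -1.88. With the scanner's ratio they were smaller, -0.86 for Arg1 (adjusted p = 0.009) and -0.18 for Calca (adjusted p = 0.432). These values are of the brightest probes. A second, dimmer probe of Calca was called lower at -1.75 in the log ratio (limma adjusted p over probes 0.00051). The scanner's ratio left 5 of the 10 calls: Bmp7 (adjusted p = 0.0568), Cxcl2 (1.26, adjusted p = 0.0583), Tnfsf11 (1.78, adjusted p = 0.134) and Lif (adjusted p = 0.26) were lost besides Calca. With slide as a block Bmp7, Cxcl2, Tnfsf11 and Lif were not called (adjusted p of 0.179, 0.192, 0.0908 and 0.188). Lif was not called in the sample channel either (adjusted p = 0.067). Without knockout array 2, 6 of the list were called. The calls of Bmp7, Cxcl2, Lif and Tnfsf11 were each lost on leaving out that array (adjusted p of 0.0747, 0.0517, 0.132 and 0.0507). Bmp7 was also lost without knockout array 1 or wild-type array 3 or 4, and Lif without knockout array 1 or wild-type array 1, 2 or 4 (adjusted p of at most 0.115).

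The genes most like each of the 9 were found as the 3 with the highest Pearson r over the 7 arrays, among 16642 named genes. The r rests on 7 arrays and is a description. For Il31 they were Immp1l, Fut7 and Qser1 (r = 0.991, 0.991 and 0.990), of which Fut7 differed by 2.70 and Qser1 by 0.93 between the groups. For Il3, Pds5b and Tmem176a were among them (0.995 and 0.992). For Csf2 they were Spp1, Cstl1 and Il2 (0.966, 0.956 and 0.948), with differences of -0.02, -0.0045 and -0.0089. For Il9 they were Ruvbl2, Afp and Hacd2 (0.994, 0.972 and 0.971).

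The likeness lists of the genes that lay lower were led by others. For Il4 they were Srgn, Olfr907 and Brwd3 (0.992, 0.990 and 0.986), for Il13 Galk1, Foxd4 and Kdelr3 (0.989, 0.980 and 0.977), and for Il5 Tspan6, Slc27a3 and Rhcg (0.979, 0.979 and 0.977). For Rad50 they were Slc37a4, Bsg and Prr15 (0.998, 0.997 and 0.993), which fell by 0.88, 0.97 and 0.92 on the log2 scale. For Areg they were Gm3219, Aldh3a1 and Cndp2 (0.982, 0.981 and 0.980). No gene stood on the lists of more than 1 of the 9.

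Markers of ILC2s and of other cells that make these cytokines were read on the same arrays. All 12 ILC2 markers were well above background, 11 of them on all 7 arrays and Ptgdr2 on 2 of the 4 wild-type arrays. Of the 12, 5 were called, against 7.5% of all tested genes. Ptgdr2 rose 6.05-fold and Il17rb 3.60-fold, while Il1rl1, the IL-33 receptor, fell 3.70-fold, Gata3 1.90-fold and Ly6a, which encodes Sca-1, 1.65-fold. Dimmer probes were called in the same direction with smaller differences. That of Il17rb stood at 0.48, against 1.85 for the brightest, and those of Il1rl1 at -0.76 and -1.14, against -1.89. Here and below a list's level is the log2 of its sample signals added on the linear scale, in which the brightest probes weigh most. For ILC2 markers it was 18.66 to 18.87 on knockout arrays and 19.08 to 19.55 on wild-type arrays. That sum holds the sample channel alone, and the readouts differed for Icos, one of the 12. Icos was lower by 0.68 in the sample channel (difference -0.68, limma adjusted p = 0.0141), and its reference channel differed by -0.57. In the log ratio Icos differed by -0.11 and was not called (limma adjusted p = 0.701). Of 10 mast cell and basophil markers, 5 to 6 lay above background on knockout arrays and 5 to 8 on wild-type arrays. Of these, Fcer1a and Ms4a2 did on no array, and Hdc and Cpa3 fell (-0.36 and -0.51). Their summed level was 10.48 to 10.52 on knockout arrays and 10.49 to 10.73 on wild-type arrays.

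T cell markers, 10 to 11 of 11 above background in both groups, summed to 15.03 to 15.52 on knockout arrays and 15.26 to 15.53 on wild-type arrays. None of 10 tested was called by limma, against 7.5% of all tested genes, though 4 had an unadjusted p under 0.05. Markers of ILC3s and type 17 cells summed to 14.29 to 14.86 on knockout arrays, against 10.01 to 10.31 on wild-type arrays. Il17a, Il17f, Il1r1 and Ccr6 of that list were called higher. Markers of eosinophils (9.78 to 9.80 on knockout arrays and 9.67 to 9.76 on wild-type arrays) and of B cells (13.76 to 14.04 and 13.97 to 14.25 in the same order) had no call by limma, and 0 of either had an unadjusted p under 0.05. Those of myeloid and dendritic cells summed to 12.83 to 13.03 on knockout arrays and 14.12 to 14.90 on wild-type arrays, with H2-Ab1 lower and Cd74 higher. That sum holds the sample channel alone, where H2-Ab1 differed by -2.68. The reference channel of H2-Ab1 differed too, by -1.34 (limma adjusted p = 0.0382). Its difference was -1.34 in the log ratio and -0.93 with the scanner's ratio. The part of all these cell types in the cytokine results was not tested.

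**Figure D5:**
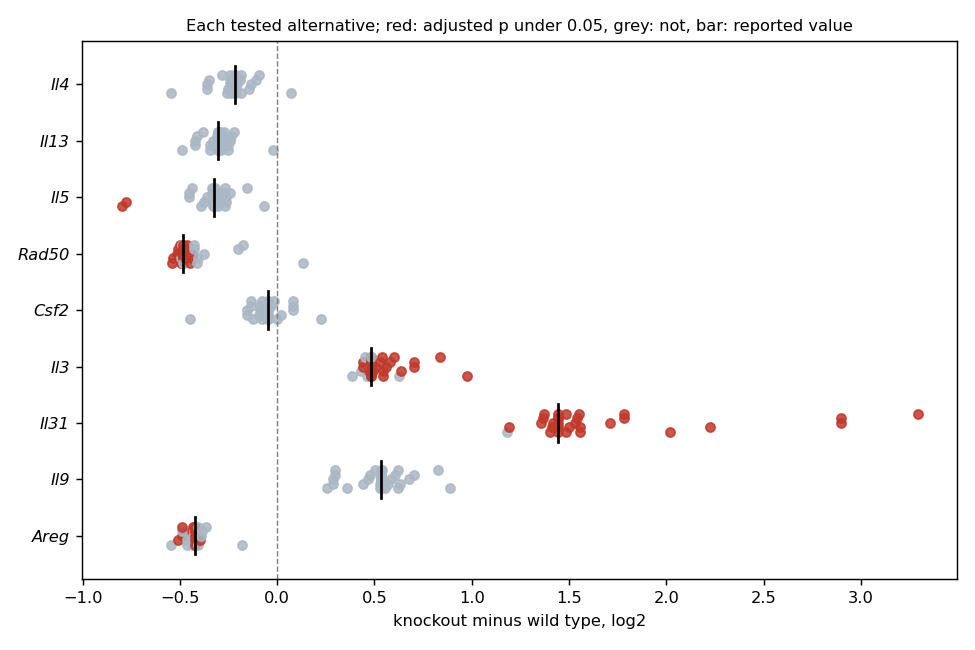
Knockout minus wild-type log2 difference of each of the 9 genes under every alternative that gave a test (points, red where the limma adjusted p was under 0.05 and grey where it was not), with the reported value as a black bar. Il31 was called in 29 of 30 alternatives, Il3 in 24 of 31, Rad50 in 20 of 31 and Areg in 13 of 31, and Il5 in 2 of 31. The alternative that required signal above background on all 7 arrays left Il31 out.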

How the data were processed

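Per the labels, Cy5 carried the sample and Cy3 the common reference on all 7 arrays, with no dye swap. The authors' deposited scanner output holds spot intensity, written by Agilent Feature Extraction 11.0.1.1 per the file headers (10.7.3.1 per the submitters' processing notes), and a deposited log10 ratio that the scanner software background-subtracted and dye-normalized. The deposited series table holds that ratio as log2. No build-matched genome was used, and the array design's build differs from that of the RefSeq tables, so coordinates are given for the RefSeq promoter windows alone (GRCm38.p6) and none for probes.

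Median signals were corrected with normexp (offset 50) and normalized by loess within each array in limma 3.58.1 (R 4.3.3), with control spots at weight 0. Spots of one probe were averaged, and 2597 spots with outlier or non-uniformity flags were left out. Accessions were named through a RefSeq gene table (GRCm38.p6): a single gene was found for 26581 probes, and 12848 kept no name. Genes well above background in the sample channel on at least 3 arrays were tested (30317 probes, 25370 genes), with the brightest probe for a gene. No probe of the 9 genes was saturated. The test was limma's lmFit with eBayes and no block, and the procedure was tested on simulated data. The sample channel was taken after loess and Aquantile. Figures were drawn with matplotlib 3.10.9.

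Named genes were the 9, Gfi1, the called members of each list (or the 4 with the smallest p) and the 3 genes most like each of the 9. Some genes that this rule names are not reported here. The genes, lists and tests were chosen with earlier results of these data known. The labels give the number of mice pooled for each array, and each array was taken here as a separate pool of animals. Precision is limited by the number of arrays.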

Additional observations from a re-analysis of the deposited data

How the results depend on the processing

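Il31 kept its direction in all 32 alternatives that gave it a value, from 0.90 to 3.29, and was called in 29 of 30 with a test. It had no value where signal above background was required on all 7 arrays, since it cleared background on 2 of the 4 wild-type arrays. The 3 arrays needed for testing were reached with the knockout arrays, where Il31 was high. Il3 was called in 24 of 31, Rad50 in 20, Areg in 13, Il5 in 2 (the sample channel alone and the scanner's red signal, -0.78 and -0.80) and Il4, Il13, Csf2 and Il9 in none.

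Of the 9 genes, 4 were called as reported. The count was 2 with median centring, with no normalization within arrays, with a replicate block and with knockout array 3 and wild-type array 4 both left out, 1 with slide as a block and with a minimum change of 1.2-fold, and 0 with plain background subtraction (at an adjusted p under 0.05, where 990 genes were called over the array). It ran from 1 to 3 on leaving out an array. Over the array, 1904 genes were called as reported, 478 with slide as a block, 1081 with the replicate block, 1135 without both arrays, 584 with the minimum change and 1262 to 1897 on leaving out an array, with 1262 without knockout array 2 and 1268 without wild-type array 4. Locus neighbours had 1 call with the scanner's red signal. Regulators had 3 with slide as a block and 5 with the minimum change. Receptors had 0 to 3 calls against 1: 3 with the dimmest probes, 2 with averaged probes, scale normalization or slide as a random block, and 0 with the other changes in count, among them 0 to 1 on leaving out an array. Other secreted products had 5 with the scanner's ratio or the series table, 6 with subtraction or slide as a block and 6 to 10 on leaving out an array. The RAD50 complex had 1 call with no normalization within arrays. The cause of these moves was not tested, except that blocks and left-out arrays leave fewer degrees of freedom.

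The sign changed for Rad50 with its dimmer probe (0.13), for Il4 with no normalization within arrays (0.0698), for Il5 within slide 1 (0.0705), for Il9 within slide 2 (-0.14) and for Csf2 with median centring (0.0205), no normalization (0.22), the replicate block (0.0834), without both arrays (0.0786) and on leaving out an array (-0.1224 to 0.0834, with 0.0004 without knockout array 2 and 0.0834 without wild-type array 4). Deviations of same-numbered arrays from their group means correlated at 0.04, 0.24 and 0.02, and those of differently numbered arrays at -0.24 to 0.27. With so few arrays these values cannot settle whether replicate numbers pair the samples. With the replicate block Il31 and Il3 stayed called (adjusted p = 0.00757 and 0.0402), and Areg and Rad50 did not (0.0872 and 0.0678).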
